A study of Mus musculus with 39 samples.

Results

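Cytokines are the signals through which immune and fat cells start and stop inflammation, and 10 genes of that circuit are described here in the epididymal adipose tissue of C57BL/6J mice. The genes were taken by name from the array: Tnf, Il6, Il1b, Il18 and Il33 (cytokines), Il1rn and Il10 (the antagonist of interleukin 1 and an anti-inflammatory cytokine), Socs3 and Nfkbia (feedback inhibitors), and Nlrp3 (the sensor of an inflammasome). They were 10 of 29411 gene names on the array, and all 10 had a probe. Each gene was read from its brightest probe, and Il1rn alone had a second one. In GRCm38.p6 the RefSeq genes lie with Tnf at chr17:35199367-35202007, Il6 at chr5:30013114-30019975, Il1b at chr2:129364569-129371164, Il18 at chr9:50554700-50581841 and Il33 at chr19:29925113-29960718. The others lie with Il1rn at chr2:24336860-24351491, Il10 at chr1:131019845-131024970, Socs3 at chr11:117966079-117970336, Nfkbia at chr12:55489409-55492647 and Nlrp3 at chr11:59541569-59566955. RNA levels are given as the log2 of the scanner's processed signal minus the array's 75th percentile, so that 0 is the 75th percentile of that array and 1 unit is a doubling.

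The series held 39 one-colour arrays. Mice were weaned and allocated at 3 to 4 weeks of age, with 30 animals planned per group. LFC mice ate a low-fat diet with 10% of calories from fat (11 arrays, days 1, 6, 10 and 14 and weeks 0 to 18), and HFC mice ate a high-fat, high-sucrose diet with 60% of calories from fat (10 arrays, day 6 onward). HF5, HF20 and HF75 mice ate the same high-fat diet and received the plant formulation KAL-1 at 5, 20 or 75 µg (6 arrays each, every 3 weeks from week 3 to week 18). Each diet had 1 array at each time point, and how many mice stood behind an array is not given in the sources used here, so p-values measure the spread between arrays taken over time points, which may in part be technical. All values come from whole tissue, in which fewer cells of a type and less RNA per cell cannot be told apart.

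Tnf, interleukin 1 and Toll-like receptor ligands act through NF-kappaB, a transcription factor held in the cytoplasm by the inhibitor that Nfkbia encodes, and NF-kappaB in turn raises Nfkbia, Tnf, Il1b and Il6. Interleukin 6 and interleukin 10 act through JAK kinases and STAT3, which induces Socs3, an inhibitor of the interleukin 6 receptor. Interleukin 1 beta and interleukin 18 are made as inactive precursors that caspase 1 cuts once an inflammasome such as NLRP3 has formed, so an RNA level says nothing of the amount released. Macrophages are known as a main source of Tnf, Il1b, Il1rn and Il10 in fat, while Il33 is known from stromal and mesothelial cells.

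As examples of genes that moved together over the arrays (below), the 250 bases before the RefSeq start sites of Il6, Nfkbia and Tnf are shown (GRCm38.p6, 5′ to 3′ on the gene's strand). Il1b and Socs3 followed Il6 at least as closely as Nfkbia did. Their windows are not shown and held no match to the kappaB consensus. Capitals mark matches to the NF-kappaB consensus (the kappaB consensus) or to the AP-1 site TGANTCA.
Il6, chr5:30012864-30013113, plus strand: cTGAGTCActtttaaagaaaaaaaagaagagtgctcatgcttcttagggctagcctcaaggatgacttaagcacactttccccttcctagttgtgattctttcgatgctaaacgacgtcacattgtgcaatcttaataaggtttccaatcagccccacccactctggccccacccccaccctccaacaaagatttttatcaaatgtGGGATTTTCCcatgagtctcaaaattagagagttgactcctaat
Nfkbia, chr12:55492648-55492897, minus strand: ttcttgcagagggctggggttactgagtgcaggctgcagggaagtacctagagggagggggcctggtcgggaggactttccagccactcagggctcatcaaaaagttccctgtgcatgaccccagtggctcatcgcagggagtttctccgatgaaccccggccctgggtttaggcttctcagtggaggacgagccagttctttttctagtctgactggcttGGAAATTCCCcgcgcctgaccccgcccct
Tnf, chr17:35202008-35202257, minus strand: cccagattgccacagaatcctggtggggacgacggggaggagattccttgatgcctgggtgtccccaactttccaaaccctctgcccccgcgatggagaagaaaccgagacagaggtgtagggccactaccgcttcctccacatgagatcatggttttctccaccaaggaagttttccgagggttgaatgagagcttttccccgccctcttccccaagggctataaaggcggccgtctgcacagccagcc
The kappaB consensus, searched on both strands, stood in 7.25% of 32851 RefSeq promoter windows of this length. Il6 held it as GGGATTTTCC, 44 to 35 bases before the start, and Nfkbia as GGAAATTCCC, 29 to 20 bases before the start. The AP-1 site TGANTCA stood in 6.75% of windows and was found before Il6 and before 1 of 3 Il1rn start sites. The STAT site TTCNNNGAA stood in 7.02% of windows and was found before the listed Socs3 start site as TTCTTAGAA. That window, chr11:117969367-117969616 on the minus strand, lies inside the Socs3 gene span given above, not upstream of it. The cyclic AMP element TGACGTCA stood in 1.55% of windows and in none of the windows listed for the 9 matched genes, Tnf, Il1b, Il18 and Il33 held none of the 4 motifs, and 1 of 2 Nlrp3 windows held a kappaB match. No 2 motifs overlapped, and a match is a run of letters, not a measured site.

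Of the 39 arrays, 37 had between 53.7% and 79.6% of spots well above background and between 21 and 387 outlier spots. The LFC week 3 array had 97.1% and 16431 outlier spots, and the HFC week 12 array 94.5% and 10531, so results that rest on them are also given without them. Tnf, Il1b, Il18, Il33, Socs3, Nfkbia and Nlrp3 were well above background on 39 of 39 arrays, and Il6, Il10 and the main Il1rn probe on 37. The scanner saturated for Socs3 on 21 arrays, for Nfkbia on 20 and for Il6 on 4, so the highest levels of these genes are lower limits and their differences from dimmer arrays are too small. Outlier spots left no value for Nfkbia on the LFC day 10 array, Il18 on LFC week 3, and Nlrp3 on LFC week 3 and HFC week 12. Adipocyte markers were high on every array (median of the list between 2.79 and 6.47), while the median of 10 epididymis genes ranged from -8.56 to 2.87. The median of 6 mesothelium genes was -5.80 or lower on 4 week 6 arrays (LFC, HFC, HF5 and HF75). On the other arrays it was -3.74 or higher.

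Il6 took either a high or a very low level. In LFC its lowest level was -6.60, its median 4.90 and its highest 6.65 (n = 11), and in HFC these were -6.12, 5.00 and 6.00 (n = 10). In HF5 all 6 arrays lay between 5.06 and 5.80, whereas HF20 ran from -7.06 to 6.13 and HF75 from -6.77 to 6.98. Over the 37 arrays other than LFC week 3 and HFC week 12, no level fell between -1.98 and 3.10, a gap of 5.07 log2 units with 11 arrays below it and 26 above. The 11 were LFC at day 1, day 6 and week 12, HFC at days 6, 10 and 14 and at week 3, HF20 at weeks 6, 12 and 18, and HF75 at week 12. The LFC week 3 array, at 0.89, was the only one inside the gap, and HFC week 12 stood at 5.10. Low arrays were found on both diets, at 5 of 7 arrays of days 1 to 14 (1 of 1 at day 1, 2 of 2 at day 6, 1 of 2 at day 10 and at day 14), 0 of 2 at week 0 and 6 of 30 at weeks 3 to 18 (3 of 5 at week 12, 1 of 5 at weeks 3, 6 and 18, 0 of 5 at weeks 9 and 15).

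The split ran with the way the sample titles are written, a form noticed after the levels were seen. Of the 32 arrays of weeks 0 to 18, 26 have a title that ends in the letter A, and of these 25 lay above the Il6 gap, 1 (LFC week 3) inside it and 0 below. The other 6 titles end otherwise, and all 6 arrays lay below the gap: 3 of HF20 and 1 each of LFC, HFC and HF75. The 7 arrays of days 1 to 14 have titles of the second kind, with 5 below the gap and 2 above. What the endings stand for is not given in the sources used here, so in weeks 0 to 18 the low level and whatever the title form marks cannot be told apart, and this bears on every comparison in which diets or periods hold unequal numbers of low arrays.

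**Figure D1:**
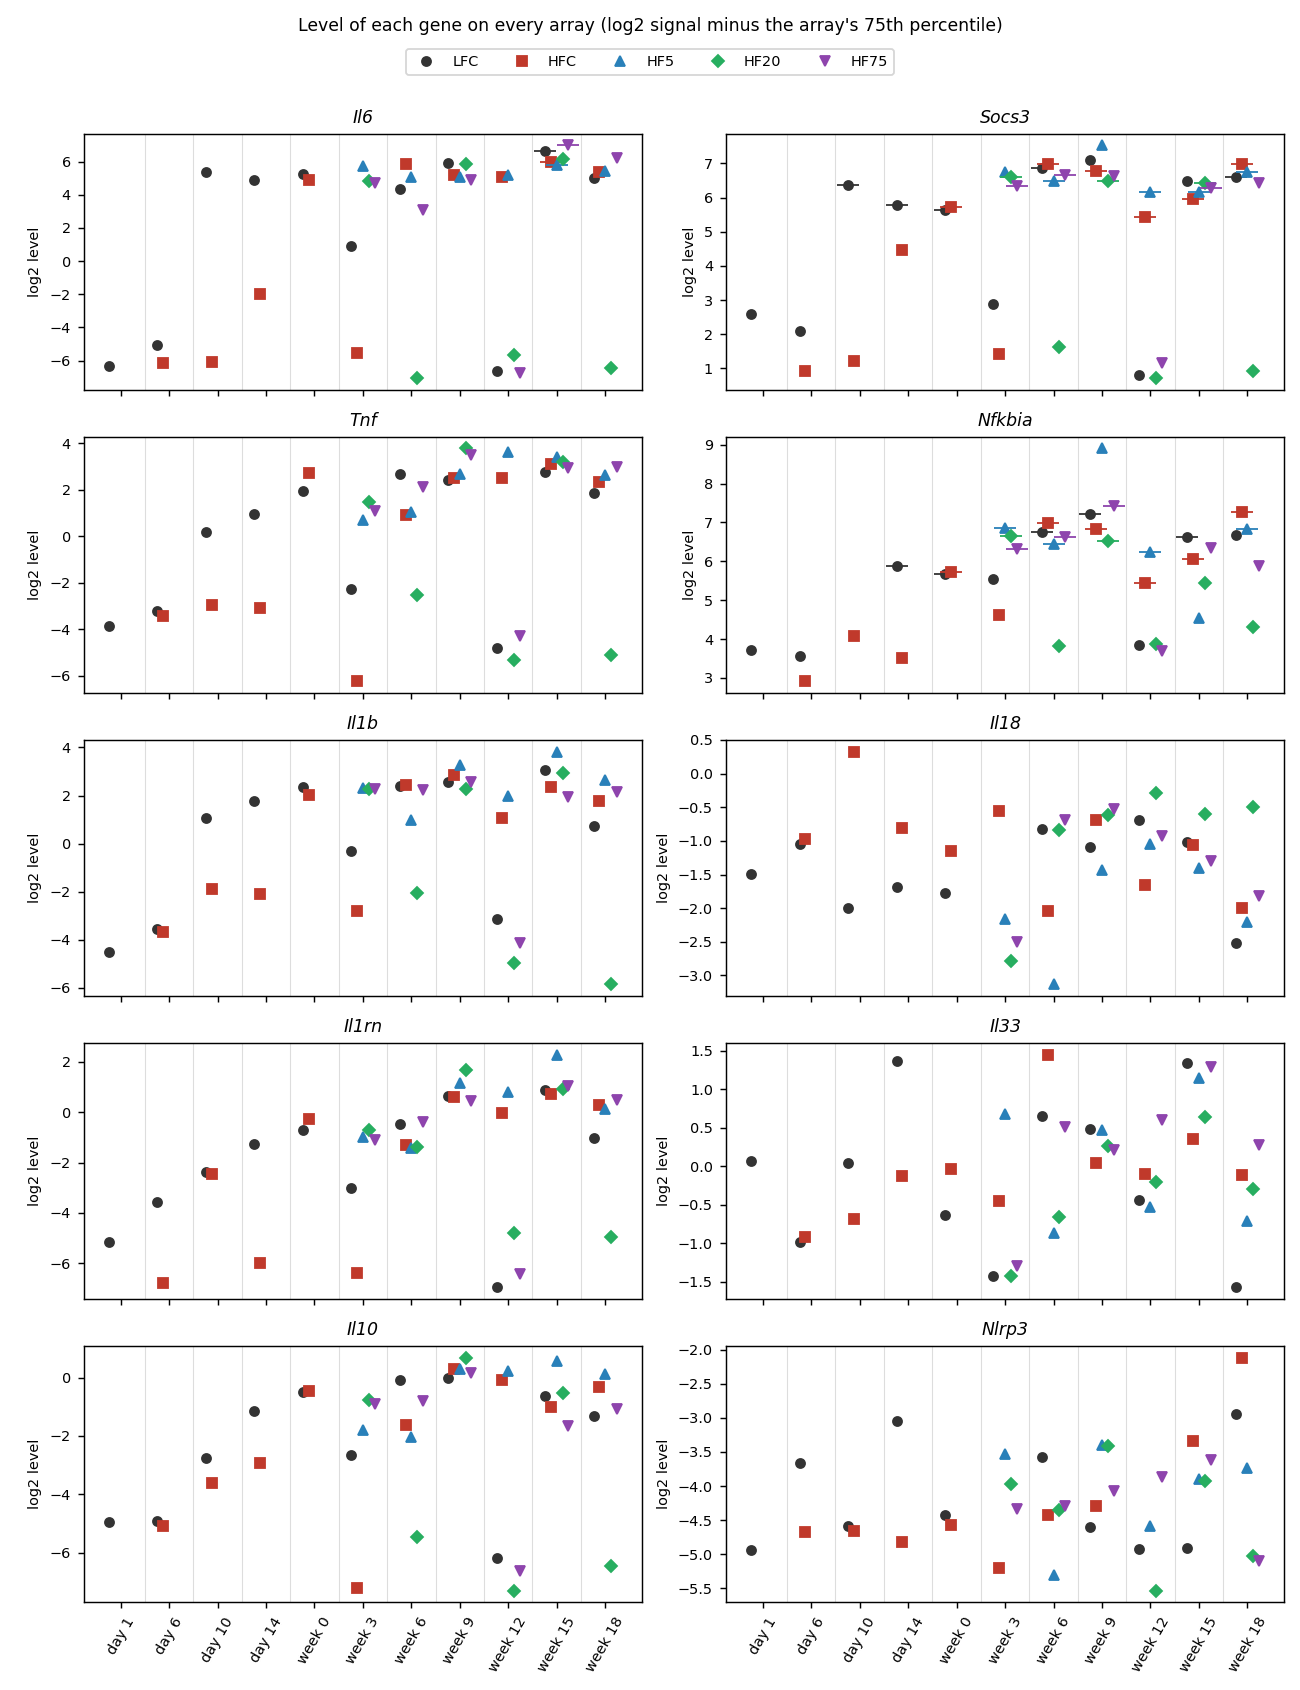
Log2 level (signal minus the array's 75th percentile) of each gene, by time point, with 1 symbol per array and a bar through symbols whose spot was saturated. Il6, Tnf, Il1b, Il10 and Socs3 each reached their 11 lowest levels on the same arrays of the 37 (LFC week 3 and HFC week 12 aside). These arrays lay at several time points and in every diet but HF5. Il6, Tnf and Il1b had their widest gap just above them, while the widest gaps of Il18, Il33 and Nlrp3 lay elsewhere.

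Tnf, the cytokine that gave the family its name, and Il1b, the fever-inducing interleukin 1, showed the same split (lowest and highest arrays are counted over the same 37 here and below). The 11 lowest arrays of Tnf were the 11 lowest of Il6, with no level between -2.51 and 0.18, and the same held for Il1b between -1.90 and 0.73. Tnf ranged from -4.82 to 2.77 in LFC (median 0.95), from -6.23 to 3.11 in HFC (1.62), from 0.72 to 3.61 in HF5 (2.66), from -5.30 to 3.79 in HF20 (-0.52) and from -4.30 to 3.49 in HF75 (2.52). Il1b ranged from -4.51 to 3.06 in LFC, -3.69 to 2.85 in HFC, 0.98 to 3.83 in HF5, -5.85 to 2.93 in HF20 and -4.11 to 2.57 in HF75. The ranges of all diets overlapped for both genes.

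The anti-inflammatory genes went down on the same arrays rather than up. Il10 had its 11 lowest levels on the 11 arrays lowest in Il6, although without a clear break: the highest of them was -2.93 and the next array, LFC day 10, stood at -2.77. Il1rn, which blocks the interleukin 1 receptor, shared 10 of its 11 lowest arrays with Il6, and the exception was HF20 week 6 at -1.38, where Il6 was at its lowest of all arrays (-7.06, not well above background). Il1rn ranged from -6.95 to 0.86 in LFC, -6.79 to 0.73 in HFC, -1.41 to 2.28 in HF5, -4.96 to 1.67 in HF20 and -6.41 to 1.01 in HF75. Its second probe was well above background on 17 arrays.

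The feedback inhibitors behaved alike. Socs3 shared all 11 of its lowest arrays with Il6, and these ran from 0.71 on HF20 week 12 to 4.45 on HFC day 14. Nfkbia shared 10 of 11, the exception being HF5 week 15, which at 4.54 lay just below HFC week 3 at 4.61. Many levels of both were capped by saturation: in HFC, for instance, the spots of both were saturated on 6 of 10 arrays. The capped levels were not always the highest, since Socs3 was not saturated on HF5 week 9 (7.53) or LFC week 9 (7.10). On the HFC day 14 array the genes parted in degree, since Il6 (-1.98) and Socs3 (4.45) stood above the other 10 low arrays while Nfkbia (3.50) did not.

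Il18, Il33 and Nlrp3 did not follow this pattern. None of the 11 lowest Il18 arrays was among those of Il6, and 6 of its 11 highest were. Il18 stayed within 3.46 log2 units over all arrays, from -3.13 on HF5 week 6 to 0.33 on HFC day 10, and Il33, an alarmin released from damaged cells, within 3.02, from -1.58 on LFC week 18 to 1.45 on HFC week 6. Nlrp3 ran from -5.53 on HF20 week 12 to -2.12 on HFC week 18 and shared 8 of its 11 lowest arrays with Il6, without a break at that place.

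**Figure D2:**
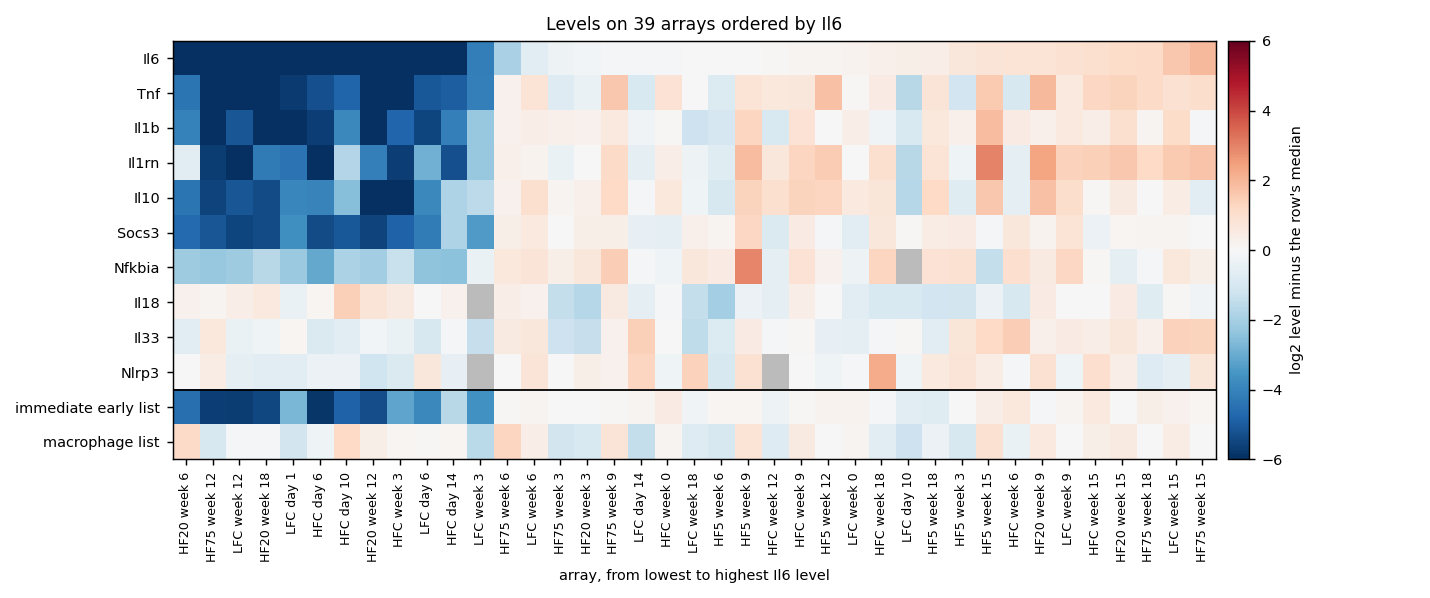
Level of each gene and the median of 2 marker lists on 39 arrays, ordered from the lowest to the highest Il6 level. Colour is the log2 level minus the row's median, cut at -6 and 6, and grey marks a missing value. The immediate early list is low on the arrays at the left, as Tnf, Il1b, Il10 and Socs3 are, and the macrophage list is not.

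Arrays from 1 slide and time point could lie on either side of the gap. At week 12, HF20 and HF5 shared a slide, and Il6 was -5.68 on the first and 5.22 on the second, Tnf -5.30 and 3.61, Il1b -4.95 and 1.98, and Socs3 0.71 and 6.16. At week 18, HF5 and HF20 shared a slide, with Il6 at 5.42 and -6.46 and Tnf at 2.62 and -5.12. Il33 differed little on these 2 slides (-0.20 and -0.53, then -0.71 and -0.30). Of the 7 slides with 2 arrays these alone had 1 array on each side, leaving aside the slide with LFC week 3. Both arrays of the slide with LFC and HFC at week 0 were high, with Il6 at 5.23 and 4.91. Overall brightness differed as well: the 75th percentile of signal lay between 697 and 1472 on the 11 low arrays (median 1071) and between 119 and 1276 on the 26 high ones (median 639). The low arrays were thus brighter in the median, though the ranges overlapped, and the part of brightness in the pattern was not tested.

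Marker lists moved with these genes to different degrees. The immediate early genes (Fos, Jun, Egr1 and others, which rise quickly after a stimulus) had their 11 lowest list medians on the same 11 arrays as Il6, and over all 39 arrays those medians ran from -1.01 to 5.44. The endothelium list (5 genes) was also lowest on those 11 arrays, and the adipocyte list had 8 of its 11 highest medians and none of its lowest there. The macrophage list shared 2 of 11, the neutrophil list 6, the T cell list 3, the B cell list 5, the mast cell list 3, the progenitor list 7 and the mesothelium list none. The macrophage list reached 2.07 on HF20 week 6 and 2.15 on HFC day 10, among its highest medians, while Il6 stood at -7.06 and -6.07 there. What part any of these lists had in the cytokine levels was not tested.

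Since the arrays fell into 2 separate ranges, levels were set against marker lists within each range, over 40 relations in all (10 genes, 2 lists, 2 ranges). Among the 26 arrays above the gap, 5 genes rose with the macrophage list. Il18 had Pearson's r of 0.79 (Spearman's rho 0.78, permutation p of r 1e-05, the smallest that the permutations can give, adjusted 4e-04). Tnf had r 0.77 (rho 0.72, permutation p 2e-05, adjusted 4e-04) and Il1rn r 0.73 (rho 0.74, permutation p 3e-05, adjusted 4e-04). Il1b had r 0.66 (rho 0.64, permutation p 0.00012, adjusted 0.0012) and Il10 r 0.64 (rho 0.66, permutation p 0.00041, adjusted 0.00273). Without the 2 arrays farthest from the list's median, r was 0.84, 0.83, 0.81, 0.72 and 0.72 for Il18, Tnf, Il1rn, Il1b and Il10. With levels centred on their time point, r was 0.71, 0.65, 0.60, 0.58 and 0.58, with unadjusted permutation p from 0.0072 to 0.0475 and none past 0.05 after adjustment. For Nlrp3 r was -0.10. No reading is made of Il6, Socs3 and Nfkbia here, since the arrays were taken by their Il6 level and the spots were saturated on 4 of 26 arrays for Il6, 20 of 26 for Socs3 and 19 of 25 for Nfkbia. Below the gap 1 relation passed, that of Socs3 with the immediate early list (r 0.90, rho 0.86, permutation p 0.00035, adjusted 0.00273 over 11 arrays), and without the 2 farthest arrays r was 0.74 with an adjusted permutation p of 0.103, so the call rests on those arrays. These 11 arrays were also taken by their Il6 level and are the 11 lowest of both Socs3 and the list, so no reading is made of it either.

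**Figure D3:**
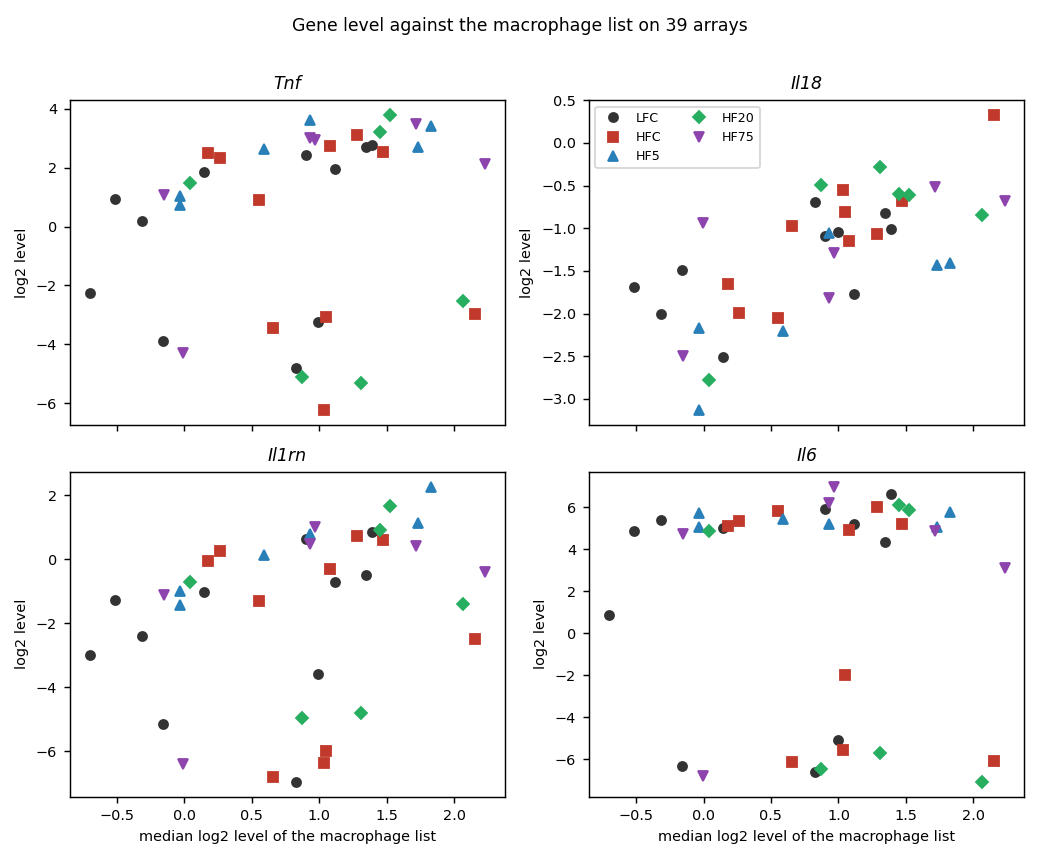
Log2 level of Tnf, Il18, Il1rn and Il6 against the median log2 level of the macrophage list, 1 symbol per array, coloured by diet. Il18 rises with the list above the Il6 gap (r 0.79). On the 11 arrays below it, r was 0.71 for Il18 and 0.71 for Il1rn (adjusted permutation p 0.066 for both). Without the 2 arrays farthest from the list's median these were 0.25 and 0.77. The low arrays of Tnf (r 0.31) and Il6 (r 0.05) lie at low and high list medians alike.

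The first comparison asked whether the high-fat diet changed these genes relative to LFC at the same time points. No gene passed in limma with time point as a block (adjusted p 0.998 for each of the 10), nor did any of 29698 probes (0%), against 907 (3.05%) at an unadjusted p under 0.05. Il6 differed by -1.40 ± 1.68 (SE) in HFC minus LFC, with 3 of 10 pairs higher in HFC and pairs from -11.46 at day 10 to 11.70 at week 12. Tnf differed by -0.42 ± 0.90 with 5 of 10 pairs higher, Il1b by -0.48 ± 0.63, Il10 by -0.19 ± 0.74 and Il1rn by -0.38 ± 0.88. For Il6 the widest pairs were those of days 10 and 14 and weeks 3 and 12, in which 1 diet lay below the gap and the other above or, for LFC at week 3, inside it. At weeks 0, 6, 9, 15 and 18, where both diets were above it, Il6 pairs differed by -0.32, 1.46, -0.74, -0.66 and 0.32. The Il6 spots of both diets were saturated at week 15, so that value is a difference between lower limits. Socs3 differed by -0.47 ± 0.66, Nfkbia by -0.27 ± 0.34, Il18 by 0.29 ± 0.33 (6 of 9 pairs higher), Il33 by 0.06 ± 0.29 and Nlrp3 by -0.14 ± 0.35. The median over the 10 genes was -0.32, beside 0.03 over all probes tested. Leaving out LFC week 3 and HFC week 12, Il6 stood at -2.41, Tnf at -0.94 and Il1b at -0.82, and none passed. Among marker lists, 6 of 6 mesothelium (median 0.95), 8 of 9 macrophage (0.59), 6 of 7 adipocyte (0.48) and 5 of 6 progenitor genes (0.15) were higher in HFC. Lower were 8 of 8 epididymis (-2.01), 6 of 8 neutrophil (-1.05), 4 of 4 B cell (-0.64) and 9 of 10 immediate early genes (-0.30). So were 6 of 6 mast cell and 5 of 5 endothelium genes (-0.21 each). No marker gene passed, and their part was not tested.

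**Figure D4:**
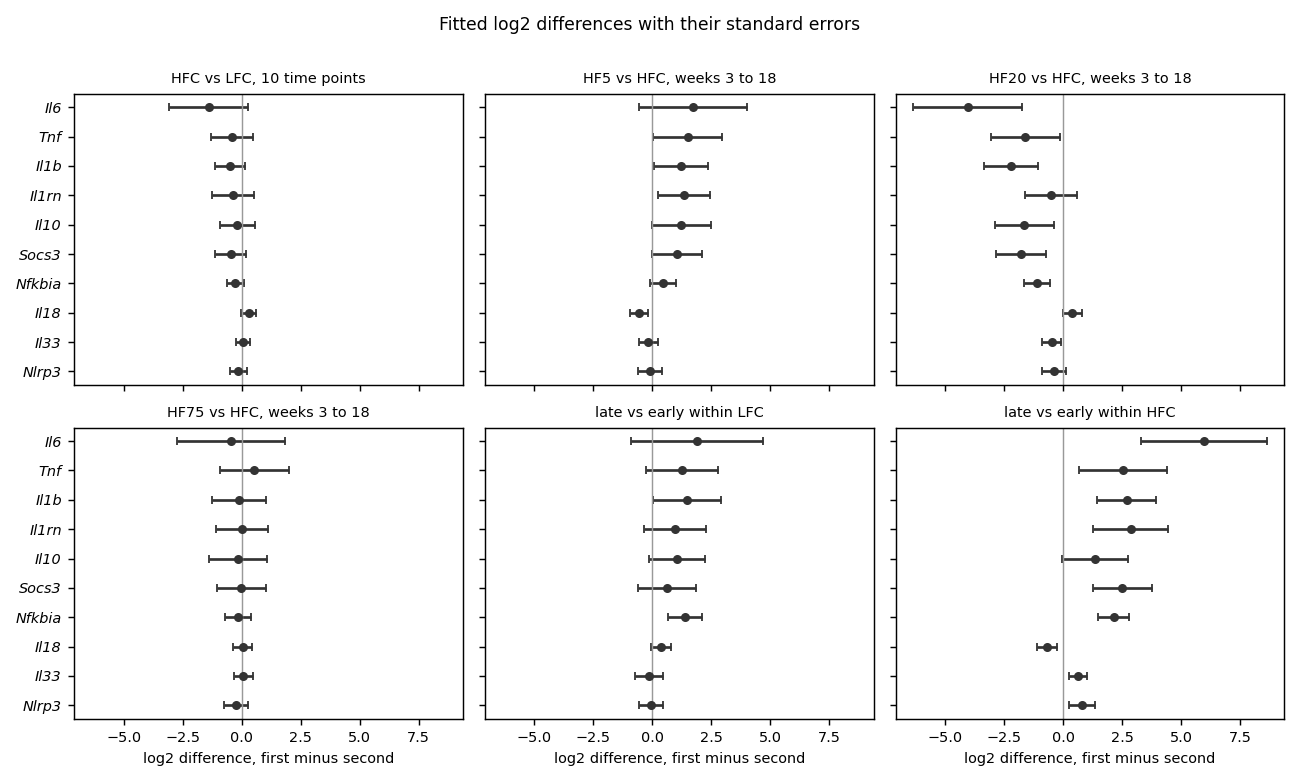
Fitted log2 difference of each gene in 6 comparisons, with bars of 1 standard error and a line at 0. Bars are widest for Il6 and short for Il18, Il33, Nfkbia and Nlrp3, and no difference passed an adjusted p of 0.05.

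The next comparisons asked whether KAL-1 changed the genes in mice on the high-fat diet, at weeks 3 to 18. All 3 doses share the same 6 HFC arrays. In HF5 minus HFC no gene passed (adjusted p 0.955 to 0.988), and 0 of 32083 probes did (0%), with 1103 at an unadjusted p under 0.05. Tnf was higher in HF5 in 6 of 6 pairs (1.50 ± 1.47), with an exact two-sided sign-flip p of 0.0312, the smallest that 6 pairs can give, not adjusted for the other genes or doses. That pattern held 1 wide pair, 6.95 at week 3, where the HFC array lay below the Il6 gap, and the other 5 pairs ran from 0.15 to 1.12. Without week 3 the Tnf difference was 0.41 and that of Il6, 1.73 ± 2.30 over all weeks, was -0.18, and leaving out LFC week 3 and HFC week 12 they were 2.55 and 3.27. Il1b (1.21 ± 1.14), Il1rn (1.35 ± 1.11), Il10 (1.23 ± 1.24) and Socs3 (1.04 ± 1.05) were near 1 SE above 0, Nfkbia stood at 0.44 ± 0.55, and Il18 (-0.57 ± 0.40), Il33 (-0.17 ± 0.39) and Nlrp3 (-0.10 ± 0.51) were below 0.

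HF20 gave the lowest differences of the 3 doses for 9 of 10 genes, and none passed (adjusted p 0.772 to 0.897), as 0 of 32083 probes did (0%), with 1619 at an unadjusted p under 0.05. Il6 differed by -4.05 ± 2.30 in HF20 minus HFC, with 3 of 6 pairs higher and an exact sign-flip p of 0.313. Its pairs were 10.40 at week 3, -12.89 at week 6, 0.67 at week 9, -10.78 at week 12, 0.13 at week 15 (HFC spot saturated) and -11.81 at week 18. Il1b (-2.19 ± 1.14), Socs3 (-1.79 ± 1.05), Il10 (-1.64 ± 1.24), Tnf (-1.60 ± 1.47), Nfkbia (-1.10 ± 0.55) and Il1rn (-0.52 ± 1.11) were lower as well, as were Il33 (-0.48 ± 0.39) and Nlrp3 (-0.39 ± 0.51), and Il18 was 0.40 ± 0.40. Without week 3, Il6 was at -6.94 and Il1b at -3.64, and the smallest adjusted p of any of the 10 genes was 0.139, and leaving out LFC week 3 and HFC week 12 Il6 was at -2.51. Marker lists moved with HF20, with no gene past the adjusted threshold. Of 10 immediate early genes tested 10 were lower (median -1.99, 7 at an unadjusted p under 0.05). Lower too were 5 of 5 endothelium (-0.65), 7 of 8 neutrophil (-0.52) and 5 of 6 progenitor genes (-0.28). Higher were 9 of 10 epididymis (1.47), 6 of 6 mesothelium (0.93), 6 of 7 adipocyte (0.65) and 8 of 9 macrophage genes (0.35). So were 4 of 4 B cell genes (0.13), and 4 of 6 T cell (0.07) and mast cell genes (0.18). The mesothelium list median was -0.31 in HF20 and -5.96 in HFC at week 6, but -3.20 and 1.51 at week 3. The part of any list in the HF20 differences was not tested. In HF75 minus HFC the 10 differences lay between -0.47 and 0.53, and averaging the doses gave -0.93 to 0.28, with 0 of 32083 probes past the threshold in either (0%), against 494 and 598 at an unadjusted p under 0.05. Whether the doses differ from each other was not tested.

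The last comparisons asked how the genes changed with time on a diet, setting weeks 3 to 18 (late) against days 1 to 14 and week 0 (early). In LFC, 145 of 30958 probes passed (0.468%) and none of the 10 genes did, 8 of which were higher late, with Il6 at a mean of 0.82 ± 5.97 (SD, n = 5) early and 2.71 ± 4.98 (n = 6) late. In HFC 9 of 10 genes were higher late than early and none passed, as no other probe did (0 of 31136, 0%), although 5165 probes had an unadjusted p under 0.05. Nfkbia had a mean of 4.05 ± 1.21 (SD, n = 4) early and 6.20 ± 1.03 (n = 6) late in HFC, a difference of 2.14 ± 0.64 (SE) with an unadjusted limma p of 0.00671, an adjusted p of 0.229 and an exact permutation p of 0.0286. The Nfkbia spot was saturated on 1 of 4 early and 5 of 6 late arrays, as the Socs3 spot was. Both Nfkbia means thus hold lower limits, so the size of the difference and its p-values are uncertain. Il6 differed by 5.97 ± 2.66 (adjusted p 0.296), Il1rn by 2.87 ± 1.59, Il1b by 2.70 ± 1.25, Tnf by 2.54 ± 1.86, Socs3 by 2.52 ± 1.25 and Il18 by -0.68 ± 0.41. Without the week 0 array, the adjusted p of Nfkbia was 0.0476, with a difference of 2.70. The day 1 to 14 arrays were scanned on other dates than the late arrays, and the week 0 arrays on a date shared with neither. Against the week 0 array alone, Il6 (-1.25), Tnf (-1.86), Il1b (-0.75), Il1rn (-0.73), Il10 (-1.21) and Socs3 (-0.13) were lower late in HFC. With array weights, 6 of the 10 genes passed in HFC, together with 7900 probes. Marker lists moved as well late in HFC: 10 of 10 immediate early genes (median 3.00) and 5 of 5 endothelium genes (0.92) were higher, and 6 of 7 adipocyte genes (-0.81) and 6 of 6 mesothelium genes (-1.30) lower, with none past the adjusted threshold, and their part was not tested. The mesothelium list median was -5.96 on HFC week 6 and between -0.66 and 1.51 on the other late HFC arrays, beside -0.15 to 1.62 early. In LFC 6 of 10 immediate early genes were higher (0.29) and 6 of 6 mesothelium genes lower (-1.32). There the mesothelium list median was -5.80 at week 6, -3.74 at week 18 and between -1.09 and 0.70 on the other late arrays, beside -1.17 to 0.22 early. The change in the HFC minus LFC difference from early to late was 5.86 ± 3.10 for Il6, from a mean of -4.92 to 0.94, and no gene (adjusted p 0.833 to 0.943) or other probe passed (0 of 29698, 0%).

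The rest of the circuit gave the same picture. Of 68 other genes in 6 lists (ligands, receptors, decoys and inhibitors, NF-kappaB and its adaptors, JAK-STAT, inflammasome), none passed in any of the 8 comparisons. On the arrays, the medians of the ligand list and of the decoy and inhibitor list were lowest on the 11 arrays lowest in Il6, and the receptor, NF-kappaB and JAK-STAT lists shared 10 of 11, while the inflammasome list shared 3. In HFC minus LFC, Osm, a ligand of the interleukin 6 family, had the smallest p among ligands (-1.46, unadjusted p 0.00803, adjusted 0.998). Late against early in HFC, 9 of 10 decoys and inhibitors were higher, with a median of 1.38 beside 0.04 over all probes, and in LFC 9 of 10 were too, with 0.60 beside -0.09. In HFC the list was led by Tnfaip3, which removes ubiquitin from NF-kappaB adaptors (3.10, adjusted p 0.259), and Dusp1, a MAP kinase phosphatase (2.02, adjusted p 0.274). Among ligands Lif stood at 2.16 and Csf1, the macrophage growth factor, at 1.18 (adjusted p 0.231 and 0.233), and in JAK-STAT Stat3 at 1.51 and Tyk2 at -1.19 (adjusted p 0.214 and 0.234). Against the same HFC arrays, 9 of 10 decoys and inhibitors were higher in HF5 (median 0.57 beside -0.03) and 9 of 10 lower in HF20 (-0.83 beside -0.07), with Zfp36, which destabilises Tnf RNA, at -1.79 and Il1r2, the interleukin 1 decoy receptor, at -1.42 (adjusted p 0.772 for both).

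The genes whose levels ran most like each member over the 37 arrays, among 18406 gene names, are given as a description, over arrays that lie on both sides of the Il6 gap. Tnf ran most like the chemokines Ccl3, Ccl4 and Cxcl2 (r 0.98, 0.98 and 0.97), Il1b like Ccl4, Dusp2 and Cxcl2 (0.96 each), and Il10 like Tnf, Ccl4 and Ccl3 (0.96, 0.96 and 0.95). Il6 ran like the neutrophil chemokine Cxcl1, the stress gene Gadd45b and the growth factor gene Hbegf (0.98 each), Socs3 like Nr4a1, Zfp36 and Gadd45b (0.98, 0.98 and 0.97), and Il1rn like Clec4e, Pik3r5 and Ccl4 (0.95, 0.94 and 0.94). Nfkbia ran like Gm7780, the metallothionein gene Mt2 and Irf1 (0.94, 0.92 and 0.92). Il18 ran like Pigz, Csf1r, the receptor of the macrophage growth factor, and Cd48 (0.86, 0.85 and 0.84), Il33 like Emp2, 5430407P10Rik and Lrrc16a (0.78, 0.78 and 0.77), and Nlrp3 like LOC625574, Olfr411 and Runx1 (0.82, 0.79 and 0.78).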

How the data were processed

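RNA of epididymal adipose tissue was labelled with Cy3 and hybridised to Agilent one-colour arrays. Per the file headers, intensity was extracted with Feature Extraction 10.5.1.1 (design build mm9), and the processed signal, background, saturation and outlier columns were used as deposited. The authors' table of log2 differences from LFC holds their own comparisons and served only as an alternative in the diet and dose comparisons. Groups and time points came from the labels. Outlier spots were set to missing, and levels were log2 processed signal minus the array's 75th percentile. limma 3.58.1 in R 4.3.3 was fitted across all probes well above background on at least 10 of 20, 6 of 30, 5 of 11 or 4 of 10 arrays (diet, dose, LFC time, HFC time), with time point as a block in the diet and dose fits, two-sided, with Benjamini-Hochberg adjustment and a threshold of 0.05. Each gene is its brightest probe over 39 arrays. All 10 members were named, with pathway genes of the smallest p as examples, chosen after their values were seen. The members and lists were chosen with earlier results of these data known. Correlations planned over 37 arrays were run within the 2 ranges of Il6 (100000 permutations). Promoters came from RefSeq, and Il10 had no entry. The code was tested on simulated data. The number of arrays limits the precision. Alternatives were quantile and median scaling, normexp (offset 50), outlier spots kept, no or a stricter probe filter, and the second brightest probe. Others were array weights, slide as a block, no block for time point, omitted arrays and a paired t-test of HFC minus LFC. The authors' table and exact permutation were also run, the latter chosen for the time comparisons after seeing the data.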

Additional observations from a re-analysis of the deposited data

Results flagged for a closer look

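In groups of 4 to 10 samples, 40 gene and diet combinations were checked for 1 array far from the others, and 7 had one (chance alone gives about 1 in 20 per check). The checks are not independent, since genes ran together over the arrays and 6 of the 7 fall on 1 array, so 7 is no measure of an excess. In HF75 the week 12 array stood apart for 6 genes: Tnf at -4.30 (nearest other array 1.07), Il6 at -6.77 (3.10), Il1b at -4.11 (1.92), Il1rn at -6.41 (-1.12), Il10 at -6.62 (-1.67) and Socs3 at 1.17 (6.29). It is the only HF75 array below the Il6 gap and the only one whose title does not end in A. In HF20 the week 3 array stood apart for Il18, at -2.78 (nearest other array -0.84), and the HF75 array on the same slide stood at -2.50.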

How the results depend on the processing

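Of 1535 member values recomputed under alternatives over the 8 comparisons, 132 turned direction, 41 of them in HF75 and 31 in the mean of the doses. In the other 6 comparisons (1179 values) 1110 kept direction and call, 60 turned and 9 newly passed. Of these 9, 7 passed at an adjusted p, all late in HFC. The rest, Nfkbia late in HFC and Tnf in HF5, passed at an unadjusted exact p. With quantile scaling HFC minus LFC turned to 0.20 for Tnf, 0.23 for Il1rn and 0.43 for Il10, HF5 minus HFC to -0.026 for Nfkbia, and late minus early in LFC to 0.12 for Nlrp3. With median scaling HF5 turned to 0.22 for Il33 and 0.014 for Nlrp3, and LFC late to 0.033 for Nlrp3. With normexp HFC minus LFC turned to -0.045 for Il33, HF5 to 0.037 for Nlrp3, LFC late to 0.0055 for Il33 and 0.65 for Nlrp3, and the change of the diet difference to -0.0090 for Nlrp3. With outlier spots kept LFC late was 0.38 for Nlrp3. Leaving out LFC week 3 and HFC week 12, HFC minus LFC was -0.093 for Il33, HF20 0.35 for Il1rn and LFC late 0.12 for Il33. With array weights HFC minus LFC was 0.059 for Tnf, HF5 0.28 for Il33 and HF20 0.14 for Il1rn, and with slide as a random block HFC minus LFC was -0.098 for Il33. Against the week 0 array alone, LFC late was -1.50 for Tnf, -2.52 for Il6, -1.49 for Il1b, 0.47 for Il33, -0.95 for Il1rn, -1.33 for Il10, -0.53 for Socs3 and 0.24 for Nlrp3, and HFC late was -1.86 for Tnf, -1.25 for Il6, -0.75 for Il1b, -0.73 for Il1rn, -1.21 for Il10 and -0.13 for Socs3. Leaving out 1 time point moved HFC minus LFC from -0.099 to 0.23 for Il33, -1.19 to 0.11 for Il1rn, -0.89 to 0.30 for Il10, -1.04 to 0.046 for Socs3 and -0.39 to 0.089 for Nlrp3; HF5 from -0.18 to 2.23 for Il6, -0.42 to 0.26 for Il33 and -0.52 to 0.29 for Nlrp3; HF20 from -1.76 to 0.42 for Il1rn and -0.79 to 0.20 for Nlrp3; LFC late from -0.43 to 0.22 for Il33 and -0.37 to 0.22 for Nlrp3; and the diet change from -0.34 to 1.79 for Il10. In HFC late against early, 6 members passed with array weights and 1, Nfkbia, by exact permutation, and leaving out 1 array gave 0 to 1. In HF5 1 member, Tnf, passed the exact sign-flip test unadjusted. Over all 39 arrays 14 correlations passed and centred on time point 0 did. Probes called late in LFC (145) numbered 66 with quantile scaling, 79 with median scaling, 0 with normexp, 332 with array weights, 0 against week 0 alone and 51 to 212 leaving out 1 array, and in HFC (0) 40 with median scaling, 7900 with array weights and 0 to 775 leaving out 1 array. Median scaling moved the median of all probes by up to 0.35 (HF75) and normexp by up to 0.41 (LFC late). The cause of these changes was not tested. Arrays were paired by time point in the diet and dose comparisons, and the labels give no replicate numbers to pair them by.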
